A study of Mus musculus with 4 samples.

Results

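The genes described here encode the S100-fused proteins and the large proteins of the cornified envelope. They are Flg, Flg2, Hrnr, Rptn, Tchh and Tchhl1 of the fused family, the envelope precursors Ivl, Lor (loricrin) and Scel, and the corneodesmosome gene Cdsn, all chosen by name. Of these 10 genes, 9 had a row in the 4 count tables, which list 24453 genes, and Flg was not analysed here. After a filter on low counts, 8 of the 9 were tested, and Tchhl1 did not pass it. RNA was sequenced from back skin epidermis of mice at postnatal day 0. The sorting gate took cells with EpCAM and Sca1 on their surface and a high level of α6-integrin, which enriches for progenitors of the epidermis between hair follicles. The I53A group held 2 libraries of genotype Ring1a-/- Ring1b-/I53A, which lack Ring1a and carry a null Ring1b allele over a catalytically inactive one. The CTL group held 2 libraries labelled Control, and the labels do not give which alleles these mice carried. The Cre or promoter behind any deletion, the sex of the mice and the number of mice per library are not given either.

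Ring1a and Ring1b are the catalytic subunits of Polycomb repressive complex 1, which ubiquitinates histone H2A and is known for silencing developmental genes. The study set the mutant against control epidermis to ask what this activity does in skin epithelium. The cornified envelope is the layer of cross-linked protein that replaces the plasma membrane as a keratinocyte leaves the living layers. Transglutaminases bind involucrin (Ivl), loricrin, sciellin (Scel) and the small proline-rich proteins into it. The fused S100 proteins carry a calcium-binding S100 domain joined to a long tail of repeats, and they are known as matrix proteins of granular cells or of hair. All of them except trichohyalin and its relative are known mainly from the upper layers, which the α6-integrin gate is meant to leave behind.

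The libraries held 15966412 and 21543385 counts in I53A replicates 1 and 2, and 17010432 and 15505018 counts in CTL replicates 1 and 2. Ring1, which encodes Ring1a, had 2.54 and 2.91 CPM (counts scaled to the size of the library) in I53A libraries, against 24.2 and 33.3 CPM in CTL libraries. Counts per gene cannot tell the I53A allele of Rnf2, the gene of Ring1b, from an intact one, so they check only the loss of Ring1a. The basal keratin Krt5 was at 11505 to 14040 CPM in I53A and 17517 to 21216 CPM in CTL libraries. Krt14, also basal, was at 1944 and 2486 CPM in I53A and 3222 and 3408 CPM in CTL libraries. Keratins of differentiating cells were also present, with Krt1 at 1472 and 2736 CPM in I53A and 2053 and 2542 CPM in CTL libraries. Krt10 was at 552 and 860 CPM in I53A and 1080 and 1203 CPM in CTL libraries. The gate genes Epcam, Ly6a and Itga6 were present in all 4 libraries. Of the 14550 tested genes, 6.71% differed between the groups, 5.68% higher and 1.04% lower in I53A, by edgeR's quasi-likelihood test at a p under 0.05 after Benjamini-Hochberg adjustment. Nothing in the labels says that the libraries of a group came from separate animals, so p-values measure the spread between these libraries, which may be technical.

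Of the 8 tested members, 2 were higher in I53A epidermis (Rptn and Scel), 1 was lower (Tchh) and 5 did not pass the test. That is 37.5% of the tested members, beside 6.71% of all tested genes. The genes were listed with earlier results of these data known, so no test was made of that share. The median log2 fold change was 0.44 over the 8 members and -0.01 over all tested genes. In Rptn, Scel, Tchh and Flg2 the I53A and CTL libraries did not overlap, as was the case in 47.9% of all tested genes. In bulk RNA, fewer cells of a type and less RNA per cell cannot be told apart.

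**Figure D1:**
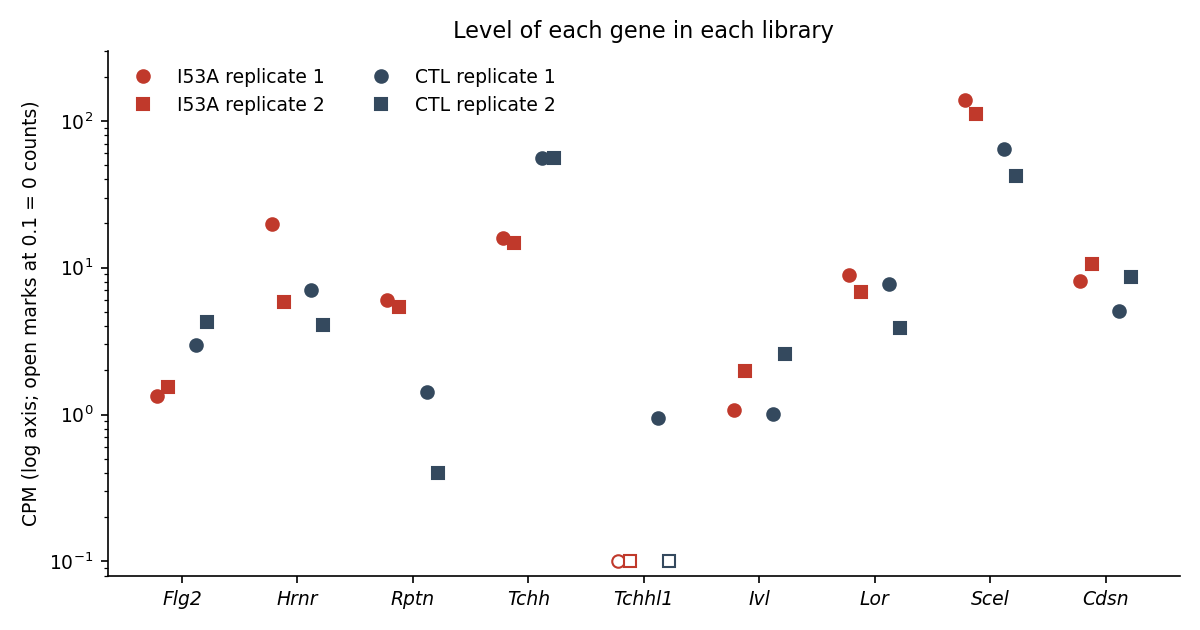
Level of each member in each of the 4 libraries in CPM on a log axis, with I53A libraries in red and CTL libraries in dark blue; open marks at the bottom stand for 0 counts. Tchh sits at 14.8 and 15.9 CPM in I53A libraries and at 55.9 and 56.1 CPM in CTL libraries, while Rptn and Scel sit higher in both I53A libraries than in both CTL libraries.

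Trichohyalin (Tchh) is a fused S100 protein known from the inner root sheath and medulla of hair, where it forms granules that are later cross-linked with keratin filaments. The gene lies on chromosome 3 from 93442330 to 93449077 on the plus strand, in coordinates of GRCm38 (mm10). Tchh had 250 and 336 counts in I53A replicates 1 and 2, against 943 and 843 counts in CTL replicates 1 and 2. In CPM these were 15.9 and 14.8 in I53A libraries and 56.1 and 55.9 in CTL libraries. Both I53A libraries were low and nearly equal, and both CTL libraries were high and nearly equal. The groups were thus far apart, but 2 libraries per group give only a rough measure of spread. The mean was 15.4 ± 0.776 CPM in I53A and 56.0 ± 0.192 CPM in CTL libraries (SD, n = 2 each), which put I53A at 27.4% of the CTL level. The log2 fold change was -1.87 ± 0.18 (SE, adjusted p = 0.000278, edgeR quasi-likelihood test). Tchh fell under all 14 alternative analyses, with log2 fold changes from -2.21 to -1.82.

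Repetin (Rptn) is a fused S100 protein of the granular layer, known from stratified epithelia of the mouse as an envelope precursor. Its gene lies beside Tchh, on the side away from Tchhl1, on chromosome 3 from 93393699 to 93399442 on the plus strand, and 42.9 kb separate its end from the start of Tchh. Rptn had 94 and 122 counts in I53A replicates 1 and 2, against 24 and 6 counts in CTL replicates 1 and 2. The levels were 5.98 and 5.38 CPM in I53A libraries, and 1.43 and 0.398 CPM in CTL libraries. The I53A libraries were close to each other, while the CTL libraries differed 3.59-fold between themselves and were both below the I53A libraries. The log2 fold change was 2.58 ± 0.55 (SE, adjusted p = 0.0183, edgeR quasi-likelihood test), a 5.98-fold increase. The adjusted p was 0.0589 without CTL replicate 1 (log2 fold change 3.81) and 0.193 without CTL replicate 2 (1.98). With 1 CTL library left, that library is assumed to vary like the I53A libraries, and the calls over all genes then drop to 297 and 326, against 977 with both, so a p lost in this way does not single out the gene.

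Sciellin (Scel) is a LIM domain protein that transglutaminases cross-link into the envelope. Scel lies outside the chromosome 3 cluster, on chromosome 14 from 103513342 to 103612797 on the plus strand. It was the most highly counted member, with 2194 and 2522 counts in I53A replicates 1 and 2, against 1083 and 631 counts in CTL replicates 1 and 2. Its levels were 140 and 111 CPM in I53A libraries, and 64.5 and 41.8 CPM in CTL libraries, so both I53A libraries lay above both CTL libraries. The log2 fold change was 1.23 ± 0.21 (SE, adjusted p = 0.00639, edgeR quasi-likelihood test), or 2.35-fold. Without CTL replicate 2, the lower control, it was 0.96 with an adjusted p of 0.103.

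The sequences just before the start sites are shown for the called members, and for Flg2 and Lor as members that did not pass the test. Each is the 120 bases that end directly before the RefSeq start on GRCm38.p6, read 5′ to 3′ on the strand of the gene. Capitals mark TGANTCA, where N is any base, and TATAAA, the letters of the TATA box. TGANTCA is a loose form of TGACTCA and TGAGTCA, the site of AP-1 factors, which are known regulators of envelope genes.
Tchh, chr3:93442210-93442329, plus strand: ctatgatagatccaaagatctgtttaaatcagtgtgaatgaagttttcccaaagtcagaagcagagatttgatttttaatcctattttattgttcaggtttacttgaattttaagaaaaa
Rptn, chr3:93393579-93393698, plus strand: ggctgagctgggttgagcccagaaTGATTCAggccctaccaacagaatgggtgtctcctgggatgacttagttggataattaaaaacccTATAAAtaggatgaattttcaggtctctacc
Scel, chr14:103513221-103513340, plus strand: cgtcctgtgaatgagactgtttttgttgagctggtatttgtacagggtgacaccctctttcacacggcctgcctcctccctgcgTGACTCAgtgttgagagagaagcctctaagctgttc
Flg2, chr3:93197153-93197272, plus strand: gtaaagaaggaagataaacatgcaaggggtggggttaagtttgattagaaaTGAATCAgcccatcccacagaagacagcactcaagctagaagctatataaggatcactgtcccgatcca
Lor, chr3:92083143-92083262, minus strand: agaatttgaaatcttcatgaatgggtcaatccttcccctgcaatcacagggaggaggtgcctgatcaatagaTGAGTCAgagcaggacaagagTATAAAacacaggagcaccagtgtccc

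Both strands were searched over 250 bases before and 50 bases after each start, and no match of one motif overlapped one of the other. TGANTCA was found for 6 of the 9 members, namely Flg2, Rptn, Tchhl1, Ivl, Lor and Scel. It was found in 7.81% of 32851 RefSeq windows of the same length. The match was TGACTCA or TGAGTCA in Ivl, Lor and Scel, but TGAATCA or TGATTCA in Flg2, Rptn and Tchhl1. The share of all windows was taken for the loose form only. Its first base lay 96 bases before the start of Rptn, 36 before that of Scel, 69 before that of Flg2, 48 before that of Lor, 87 before that of Tchhl1 and 116 before that of Ivl. The windows of Tchh, Hrnr and Cdsn, at either of the starts listed for Cdsn, did not hold these letters. TATAAA was found for Hrnr, Rptn, Ivl and Lor, and in 13.6% of all windows. The genes with TGANTCA thus included both members that rose and 4 that did not pass or were not tested. Of the members that rose, Scel had the AP-1 site TGACTCA, whereas Rptn had TGATTCA. A match is a run of letters and not a measured binding site.

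Hornerin (Hrnr) and filaggrin-2 (Flg2) are fused S100 proteins of the granular and cornified layers, built of long repeats like profilaggrin. Hrnr had 20.0 and 5.86 CPM in I53A replicates 1 and 2, against 7.08 and 4.04 CPM in CTL replicates 1 and 2. One I53A library was high, and the other lay between the CTL libraries, so the groups overlapped. Hrnr did not pass the test (log2 fold change 1.14 ± 0.54, SE, adjusted p = 0.302, edgeR quasi-likelihood test). I53A replicate 1 decided this value, since the log2 fold change was 0.07 without that library and 1.83 without I53A replicate 2 (adjusted p = 0.957 and 0.00204). Flg2 had 1.34 and 1.54 CPM in I53A libraries, against 2.98 and 4.24 CPM in CTL libraries, so that both I53A libraries were below both CTL libraries. It did not pass the test either (log2 fold change -1.30 ± 0.49, SE, adjusted p = 0.179). It did pass once the fit carried GC and length offsets (log2 fold change -1.80, adjusted p = 0.0413). Those offsets lowered the median of all tested genes by 0.12, and relative to the median Flg2 was then at -1.67. How reads that match several repeats were counted is not given in the sources used here, so the levels of Hrnr and Flg2 are uncertain.

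Tchhl1, the trichohyalin-like member of the family, lies next to Tchh on chromosome 3 and was close to undetected. It had 0 counts in both I53A libraries, against 16 counts in CTL replicate 1 and 0 in CTL replicate 2. A count of 0 allows a level of up to 0.191 CPM in I53A replicate 1, 0.132 CPM in I53A replicate 2 and 0.199 CPM in CTL replicate 2, taking a floor of 3 counts and counting error only. CTL replicate 1 was at 0.952 CPM, above the limit for CTL replicate 2, so the CTL libraries disagreed by more than counting error. A difference between the groups was not tested for this gene.

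Involucrin (Ivl) and loricrin (Lor) are the glutamine-rich and glycine-rich envelope precursors, and corneodesmosin (Cdsn) is the glycoprotein that coats the junctions between cornified cells. Ivl had 1.08 and 1.98 CPM in I53A libraries, against 1.01 and 2.58 CPM in CTL libraries (log2 fold change -0.14 ± 0.63, SE, adjusted p = 0.947). Lor had 8.97 and 6.88 CPM in I53A libraries, against 7.80 and 3.91 CPM in CTL libraries (0.40 ± 0.38, adjusted p = 0.670). Cdsn had 8.14 and 10.6 CPM in I53A libraries, against 5.06 and 8.61 CPM in CTL libraries (0.48 ± 0.35, adjusted p = 0.540, edgeR quasi-likelihood test). In all 3 genes the groups overlapped. The CTL libraries differed between themselves by 2.55-fold in Ivl, 1.99-fold in Lor and 1.70-fold in Cdsn, so that changes of that size could not be told from the spread. The signs of Ivl and Lor turned under some of the alternatives.

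**Figure D2:**
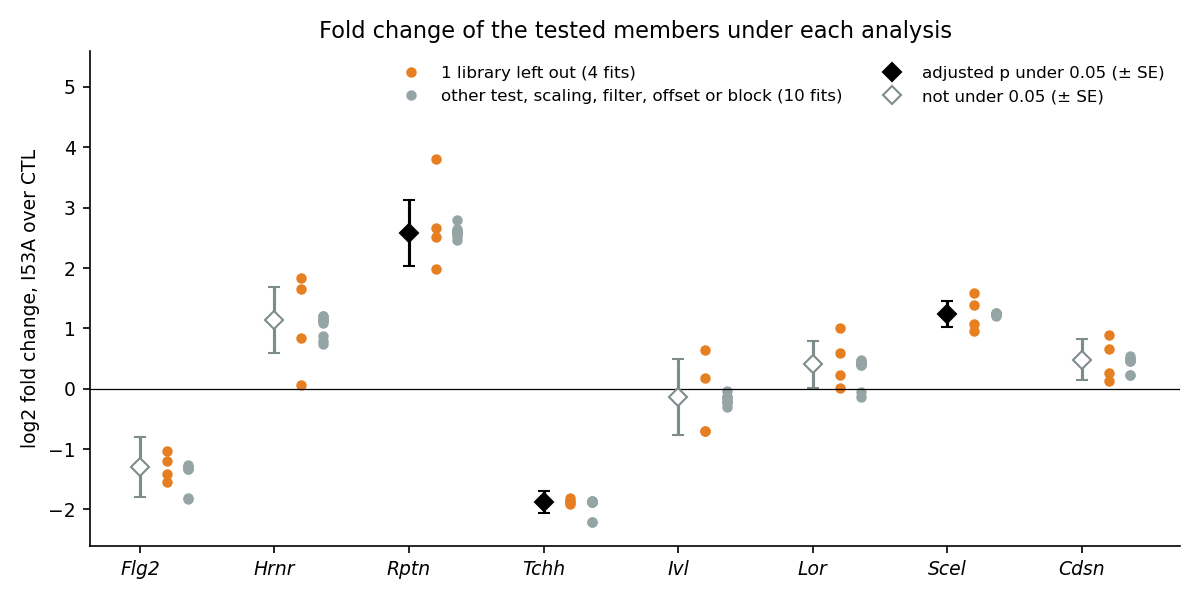
Log2 fold change, I53A over CTL, of the 8 tested members: diamonds with SE are the values of the text, filled where the adjusted p was under 0.05, orange points leave out 1 library each and grey points change the test, scaling, filter, offset or block. Tchh stays between -2.21 and -1.82, whereas the points of Hrnr spread from 0.07 to 1.83 with the library left out.

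Compared per length, as CPM per kb of exon in GENCODE M21, Scel stood first in both groups, with 50.1 ± 8.03 CPM per kb in I53A and 21.2 ± 6.40 CPM per kb in CTL libraries (SD, n = 2 each). In I53A the next levels were Lor at 4.45 ± 0.833, Cdsn at 3.50 ± 0.654, Tchh at 2.64 ± 0.133, Rptn at 1.37 ± 0.103, Hrnr at 1.15 ± 0.892 and Ivl at 0.797 ± 0.332 CPM per kb (SD, n = 2). In CTL they were Tchh at 9.62 ± 0.0329, Lor at 3.29 ± 1.55, Cdsn at 2.55 ± 0.939, Ivl at 0.936 ± 0.578, Hrnr at 0.497 ± 0.192, Tchhl1 at 0.230 ± 0.326 and Rptn at 0.220 ± 0.176 CPM per kb (SD, n = 2). Tchh thus ranked 4 of 9 in I53A and 2 of 9 in CTL libraries. Lor and Cdsn overlapped between libraries in each group, as did Hrnr and Ivl, so their order is not settled. The same holds of Rptn, whose libraries overlapped those of Hrnr in I53A and those of Tchhl1 and Flg2 in CTL. Flg2 was at 0.0692 ± 0.00702 CPM per kb in I53A and 0.173 ± 0.0430 CPM per kb in CTL libraries (SD, n = 2 each), on an exon model of 20.8 kb that may differ from the one the authors counted on. The 9 genes together took 3159 and 3590 counts in I53A libraries, against 2468 and 1833 counts in CTL libraries, most of them from Scel and Tchh.

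The members of the fused family sit side by side in the epidermal differentiation complex, the cluster of barrier genes that runs from S100a1 to S100a10 on chromosome 3. Flg2, Hrnr, Rptn, Tchh and Tchhl1 lie in this order within 275 kb. Along that stretch the log2 fold changes of the tested genes were -1.30 in Flg2, 1.14 in Hrnr, 2.58 in Rptn and -1.87 in Tchh, so that the called neighbours Rptn and Tchh went in opposite directions. In the whole region 34 annotated genes were tested, leaving out predicted and clone-named genes, of which 3 were higher (Sprr1b, Rptn and S100a10) and 1 was lower (Tchh). Of the 28 that are not members, 2 were higher and 0 lower, at a median log2 fold change of -0.04. Among all tested genes 6.71% were called in either direction. This region was examined after the values of the members were seen.

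**Figure D3:**
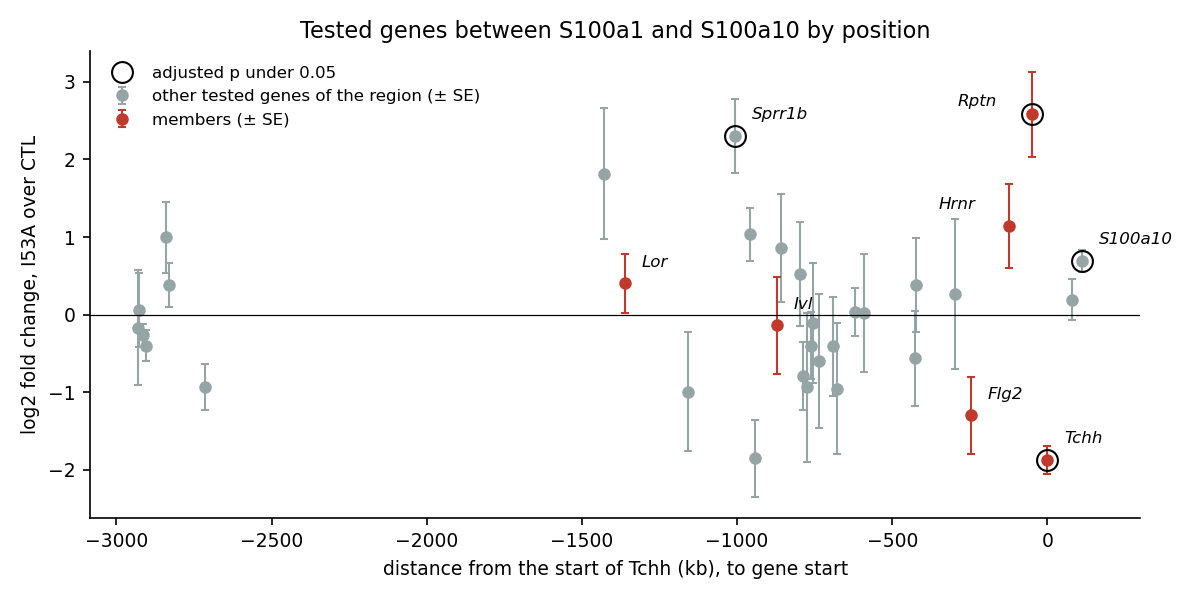
Log2 fold change, I53A over CTL (± SE), of the 34 tested genes between S100a1 and S100a10, by the distance in kb of each gene start from the start of Tchh, with members in red and genes of adjusted p under 0.05 ringed. Rptn at 2.58 and Tchh at -1.87 lie next to each other at the right, and the 28 tested genes of the region that are not members have a median of -0.04.

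Trichohyalin is matured by deimination through Padi3 and cross-linking through Tgm3, and lies beside the type I and type II keratins of the inner root sheath. Of 20 genes listed for these partners and for factors of that lineage, 15 were tested, 3 were lower in I53A, 2 were higher and 10 did not pass the test, with a median log2 fold change of -0.22. Tgm3, the transglutaminase of hair and upper epidermis, had 15.0 and 15.9 CPM in I53A libraries, against 36.01 and 92.8 CPM in CTL libraries (log2 fold change -2.05 ± 0.37, adjusted p = 0.00796). Krt27, a type I inner root sheath keratin, had 0.573 and 0.353 CPM in I53A libraries, against 3.87 and 4.84 CPM in CTL libraries (-3.27 ± 0.60, adjusted p = 0.00846). Both genes were low in both I53A libraries, like Tchh. Krt71, a type II keratin of the same layer named here after its value was seen, was the other one that fell (-2.68 ± 0.66, adjusted p = 0.0369, edgeR quasi-likelihood test). The other 4 tested keratins and Padi3, also named after their values were seen, did not pass: the log2 fold changes were -2.36 in Krt25, -0.58 in Krt75, -0.49 in Krt73, 0.01 in Krt28 and -1.65 in Padi3. Among the factors, Hoxc13, a homeobox regulator of hair keratins, had 6.74 and 11.2 CPM in I53A libraries, against 1.49 and 1.46 CPM in CTL libraries (2.63 ± 0.46, adjusted p = 0.00712). Cux1, a homeobox factor needed for the inner root sheath in mice, rose to 282 ± 15.8 CPM in I53A, against 186 ± 25.2 CPM in CTL libraries (SD, n = 2 each), and its log2 fold change was 0.60 with an SE of 0.15 (adjusted p = 0.0366), but did not pass when GC content and length were corrected for (adjusted p = 0.399). No gene of this list passed without CTL replicate 2, and without CTL replicate 1 the counts were 0 higher and 2 lower.

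Of 10 general markers of the hair follicle, 4 were higher in I53A and none was lower by edgeR, with none at 0 in every library. At an unadjusted p under 0.05 there were 7 higher and 0 lower, DESeq2 called 7 higher and 0 lower, limma-voom 3 higher and 0 lower, and edgeR 2 higher without CTL replicate 1 and 2 without CTL replicate 2. Lhx2, a stem cell regulator, was at 81.8 ± 4.57 CPM in I53A and 23.0 ± 3.65 CPM in CTL libraries (SD, n = 2 each), and its log2 fold change was 1.83 with an SE of 0.18 (adjusted p = 0.000298, edgeR quasi-likelihood test). Nfatc1, a factor of bulge stem cells, was at 136 ± 9.58 CPM in I53A and 61.4 ± 6.96 CPM in CTL libraries (SD, n = 2 each), and its log2 fold change was 1.15 with an SE of 0.16 (adjusted p = 0.00157). The summed level of the list was 1262 and 1290 CPM in I53A libraries, against 861 and 828 CPM in CTL libraries. The part of follicle cells in the levels of Tchh and its partners was not tested.

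Envelope precursors need transglutaminases to be built in, and listed genes of that family, not all of them known to act on the envelope, moved in both directions. Of 5 tested transglutaminase genes, 1 was higher in I53A, 3 were lower and 1 did not pass, with a median log2 fold change of -2.05. Tgm1, the membrane-bound enzyme of the upper epidermis, had 19.5 and 22.7 CPM in I53A libraries, against 8.57 and 6.23 CPM in CTL libraries (log2 fold change 1.51 ± 0.27, adjusted p = 0.00744, edgeR quasi-likelihood test). Tgm5, which acts in epidermal differentiation, had 4.77 and 8.33 CPM in I53A libraries, against 35.95 and 30.5 CPM in CTL libraries (-2.30 ± 0.28, adjusted p = 0.00092). In Tgm1 both I53A libraries were the high ones, and in Tgm5 both were the low ones. Tgm7 was at 0.311 ± 0.190 CPM in I53A and 4.41 ± 0.423 CPM in CTL libraries (SD, n = 2 each). Its log2 fold change was -3.90 with an SE of 0.65 (adjusted p = 0.00487, edgeR quasi-likelihood test). That value rests on 7 and 4 counts in I53A libraries, close to the floor of 3 counts, against 69 and 71 counts in CTL libraries. Tgm5 kept its call under every alternative run, whereas that of Tgm1 was lost without CTL replicate 1 or 2 (adjusted p = 0.0590 and 0.125), and those of Tgm3 and Tgm7 without CTL replicate 2 (0.0738 and 0.0612).

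Among other envelope genes few changes were called without a correction for GC content and length. Of 22 tested genes listed as other envelope proteins none passed edgeR's test in either direction, at a median log2 fold change of -0.06. The list was broad and also held Aqp3, Pglyrp3, Pglyrp4, Ly6d and Lypd3, which are not structural proteins of the envelope. At an unadjusted p under 0.05 there were 2 higher and 3 lower, DESeq2 called 0 higher and 1 lower, and limma-voom 1 higher and 0 lower. Corrected for GC content and length, 1 was higher and 4 were lower, and with the replicate block added 2 were higher and 5 lower. The desmosomal plaque protein Dsp, the one with the highest mean level, had 3478 and 4241 CPM in I53A libraries, against 4999 and 4471 CPM in CTL libraries. Dsp did not pass (log2 fold change -0.29, adjusted p = 0.423), but did with that correction (-0.68, adjusted p = 0.0296). Of 4 tested small proline-rich genes, Sprr1b rose (5.73 and 6.35 CPM in I53A libraries, against 1.55 and 0.861 CPM in CTL libraries, log2 fold change 2.31 ± 0.48, adjusted p = 0.016, edgeR quasi-likelihood test). The other 3, named here after their values were seen, did not pass. Their log2 fold changes were 1.04 in Sprr1a, -0.99 in Sprr2a3 and -1.85 in Sprr4, and the median of the list was 0.02. DESeq2 called 1 gene of the list higher and 1 lower. Without CTL replicate 1 or 2 Sprr1b did not pass (adjusted p = 0.0925 and 0.181). Of 10 tested late cornified envelope genes none passed edgeR's test, DESeq2, limma-voom or an unadjusted p under 0.05 in either direction, at a median of -0.40. Lce1b, the highest of them, had 4.64 and 2.42 CPM in I53A libraries, against 6.91 and 4.77 CPM in CTL libraries. Members of these families are close copies and may share reads. Of 5 listed peptidylarginine deiminase genes, not all of them known to act on profilaggrin or trichohyalin, 2 were tested. Neither passed by edgeR, DESeq2 or limma-voom, although 1 was lower at an unadjusted p under 0.05. The highest, Padi4, was at 0.127 and 1.54 CPM in I53A libraries, against 0.833 and 2.19 CPM in CTL libraries.

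Of 18 tested genes listed for the processing and breakdown of profilaggrin, protease inhibitors among them, 1 was higher and 1 lower, with a median of 0.18. At an unadjusted p under 0.05 there were 6 higher and 2 lower. DESeq2 called 3 higher and 2 lower, and limma-voom 1 higher and 1 lower. Klk5, a kallikrein that cleaves corneodesmosin and profilaggrin, had 9.93 and 15.2 CPM in I53A libraries, against 4.76 and 4.17 CPM in CTL libraries (log2 fold change 1.51 ± 0.34, adjusted p = 0.0255, edgeR quasi-likelihood test). It was also the 1 gene called among 10 tested corneodesmosome partners of Cdsn, and its call was lost without either CTL library or without I53A replicate 2 (adjusted p = 0.184, 0.228 and 0.0778 without CTL replicate 1, CTL replicate 2 and I53A replicate 2). Serpinb7, a serine protease inhibitor of the upper epidermis, had 0.891 and 1.98 CPM in I53A libraries, against 15.4 and 18.2 CPM in CTL libraries (-3.46 ± 0.39, adjusted p = 0.000653).

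Of 27 tested transcription factors of late epidermal differentiation 3 rose, 24 did not pass and none fell by edgeR, with a median of 0.01. DESeq2 called 1 of them lower and limma-voom 0, and 3 were lower at an unadjusted p under 0.05. Prdm1, known for terminal differentiation in mouse epidermis, was at 25.4 ± 0.336 CPM in I53A and 10.9 ± 1.57 CPM in CTL libraries (SD, n = 2 each), and its log2 fold change was 1.22 with an SE of 0.23 (adjusted p = 0.00994, edgeR quasi-likelihood test). Grhl1, which regulates desmosome genes, was at 68.8 ± 3.21 CPM in I53A and 35.0 ± 0.216 CPM in CTL libraries (SD, n = 2 each), and its log2 fold change was 0.97 with an SE of 0.16 (adjusted p = 0.0049). Grhl3, a factor of barrier formation named here after its value was seen, was the other one (0.83 ± 0.20, adjusted p = 0.0333). Without CTL replicate 1 or 2 no factor of this list passed, while 3 were higher and 7 lower when GC content and length were corrected for.

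**Figure D4:**
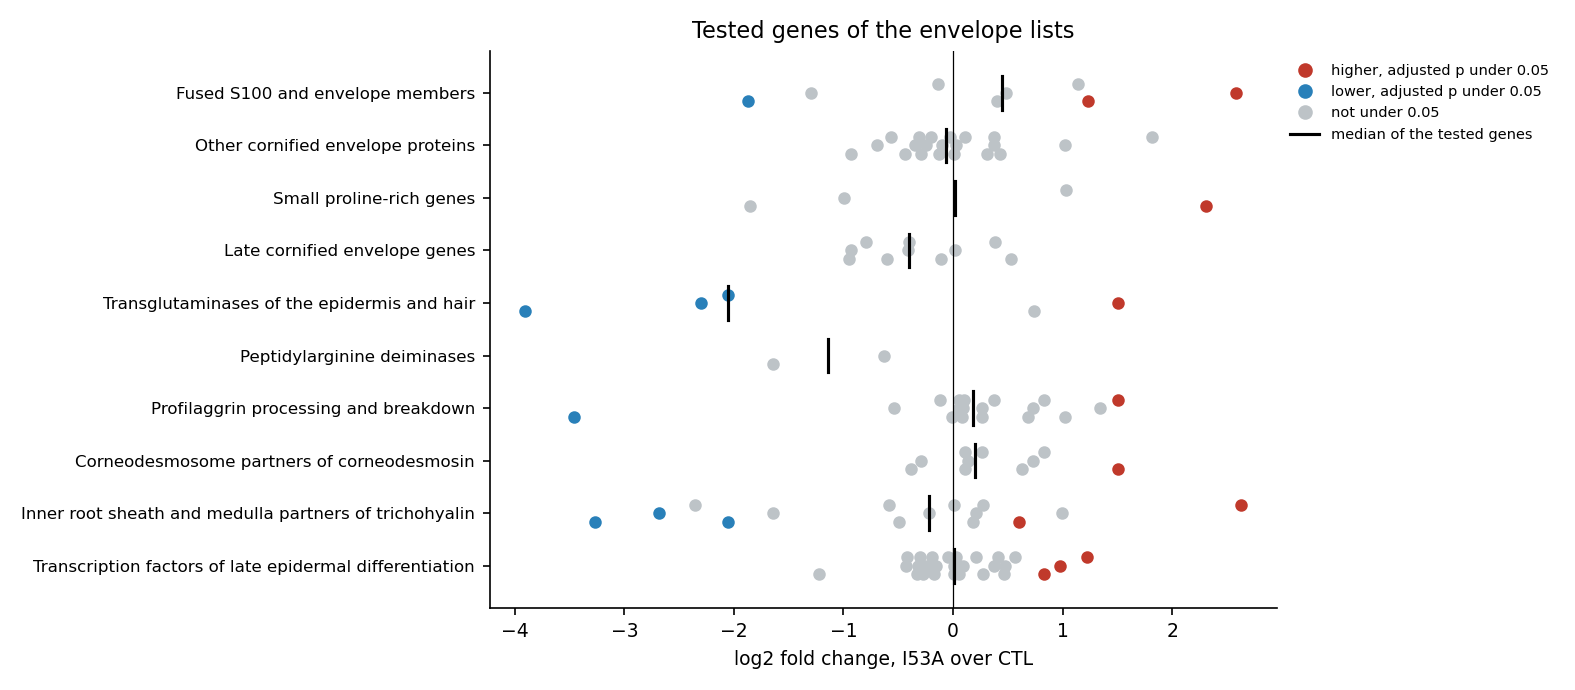
Log2 fold change, I53A over CTL, of every tested gene of the member list and of the envelope lists, with genes of adjusted p under 0.05 in red (higher) or blue (lower) and a black bar at the median of each list. Krt2, which had 0 counts in both CTL libraries, is not drawn. Transglutaminases spread from -3.90 to 1.51. No gene listed as another envelope protein or as a late cornified envelope gene is coloured.

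Markers of the layers and of other cells were measured in the same libraries. The summed level of 10 basal markers was 31175 and 27007 CPM in I53A libraries, against 36304 and 38688 CPM in CTL libraries. Krt15 was called lower (log2 fold change -0.78 ± 0.18, adjusted p = 0.0254, edgeR quasi-likelihood test). The other 9 did not pass, and the median log2 fold change of the list was -0.13. Krt5 and Krt14 were at -0.60 and -0.58. Itga3, Dst and Itgb4, named here after their values were seen, were above 0 (0.39, 0.34 and 0.09). The summed level of 10 spinous markers was 2923 and 4725 CPM in I53A libraries, against 3977 and 4696 CPM in CTL libraries. Of the spinous markers only Serpinb2, a protease inhibitor of differentiating keratinocytes, was called. It rose to 61.1 ± 0.256 CPM in I53A, against 8.71 ± 1.37 CPM in CTL libraries (SD, n = 2 each). Its log2 fold change was 2.81 with an SE of 0.21 (adjusted p = 6.51e-05, edgeR quasi-likelihood test). The other 9 did not pass, with log2 fold changes from -0.69 in Krt10 to 0.63 in Dsc1, and the median of the list was 0.11. Fibroblast markers summed to 2074 and 1862 CPM in I53A libraries, against 1374 and 1444 CPM in CTL libraries, and 1 of 6, Dcn, was called higher (0.60 ± 0.15, adjusted p = 0.0446). Of 2 tested Merkel cell markers 1 was higher, Piezo2 (1.44 ± 0.27, adjusted p = 0.00924), and the sum over the 5 listed was 26.1 and 19.7 CPM in I53A libraries, against 8.75 and 6.96 CPM in CTL libraries. Skeletal muscle markers summed to 1.15 and 3.75 CPM in I53A libraries, against 7.56 and 5.83 CPM in CTL libraries, where Myh4 had 0 counts in both I53A libraries. Summed melanocyte markers were at 17.8 and 18.4 CPM in I53A libraries, against 15.8 and 17.8 CPM in CTL libraries. Langerhans and T cell markers were at 149 and 345 CPM in I53A libraries, against 154 and 329 CPM in CTL libraries, and endothelial markers at 21.95 and 29.9 CPM in I53A libraries, against 12.2 and 31.1 CPM in CTL libraries. Pmel, Cd74 and Cdh5, the highest of these last 3 lists, did not pass the test. The calls of Krt15, Dcn and Piezo2 were lost without CTL replicate 1 (adjusted p = 0.389, 0.150 and 0.0888) and without CTL replicate 2 (0.134, 0.510 and 0.134). The part of any of these cells in the levels of the members was not tested.

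The genes with the pattern nearest to each called member were sought among 8781 genes of at least 10 mean CPM, by the root mean square difference of log2(CPM + 0.5) centred on each gene's mean over the 4 libraries. This is a description of 4 libraries in 2 groups. Nearest to Tchh were Clca3a1, at a distance of 0.059, Rab27a at 0.062 and Pcdh20 at 0.166. Clca3a1 had 56.1 and 54.7 CPM in I53A libraries, against 217 and 211 CPM in CTL libraries. Nearest to Scel were Unc13d at 0.049, Zc3h12c at 0.060 and Amotl2 at 0.065. Nearest to Rptn were Rtn4rl1 at 0.101, Gpr153 at 0.155 and Armcx4 at 0.158, with the distance of Rptn made smaller by the pseudocount, since its CTL levels are near it.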

How the data were processed

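Per the labels' protocols, total RNA of sorted cells was amplified (Ovation RNA-seq System V2) and sequenced as single reads. Without giving their roles, the submitters' processing notes list the build mm10 and the tools HTSeq 0.6.1, DESeq2 1.6.3, TopHat2 2.0.13 and Cufflinks 2.2.1. The sources used here do not give the annotation or strand setting. Raw counts per gene symbol were deposited. Replicates differed by more than sampling noise, and more so in I53A (chi-square per degree of freedom 44.3) than in CTL (13.45).

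Genes were filtered with filterByExpr (minimum count 10, total 15), scaled by TMM and compared with edgeR 4.0.16 in R 4.3.3 (glmQLFit and glmQLFTest, group only, two-sided), with Benjamini-Hochberg adjustment over all 14550 tested genes and a threshold of 0.05. The procedure was tested on simulated data. SE come from the fold change and F. Positions and lengths are from GENCODE M21, which matched 23797 of 24453 symbols, and no other listed gene overlapped a member. Promoter windows are from RefSeq and matched all 9 members.

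Members and lists were chosen with earlier results of these data known. Named are all members, up to 2 higher and 2 lower genes of smallest p per list, otherwise its highest gene, and 3 nearest patterns per called member. The alternatives were limma-voom (limma 3.58.1), DESeq2 1.42.0, other scalings, filters, offsets, the replicate block, each library left out and, added after seeing the data, the earlier edgeR fit.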

Additional observations from a re-analysis of the deposited data

How the results depend on the processing

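Tchh kept its call in 14 of 14 alternatives, Scel in 13 and Rptn in 12. Leaving out 1 library gave 297 to 1520 genes called and 1 to 4 members called, against 977 and 3, with 1 member, Tchh, left without CTL replicate 2. Offsets for GC content and transcript length split the calls into 731 higher and 715 lower genes, against 826 and 151 without them, and called 4 members. Over all tested genes, same-numbered libraries hardly deviated together (correlation 0.041), and the main fit did not take the numbers as pairs. Each tested member, however, was higher under the same number in both groups. That was replicate 1 for Hrnr, Rptn, Tchh, Lor and Scel, and replicate 2 for Flg2, Ivl and Cdsn. With 2 libraries per group, whether the numbers mark pairs cannot be settled. The replicate block gave 1274 genes and 3 members, and the replicate block with the offsets 2366 genes and 4 members. The sign of Ivl turned without I53A replicate 1 (log2 fold change 0.18) and without CTL replicate 2 (0.64), and its values with 1 library left out ran from -0.70 to 0.64. That of Lor turned with the offsets (-0.13) and with the replicate block and the offsets (-0.0495), and relative to the median of all genes Lor was then at 0.01 and 0.09. Causes were not tested. The low counts of Rptn in CTL libraries, 24 and 6, limit what depth can show, and for Tchhl1 the CTL libraries also disagreed.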
